A study of Mus musculus with 2 samples.

Results

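The genes of the proteasome were examined in LSK cells, sorted from mouse bone marrow as Lin-c-kit+Sca1+, the fraction that lacks lineage antigens and is enriched for haematopoietic stem and early progenitor cells. Members were chosen by gene symbol: every probe set of the array whose only annotated symbol begins with Psm, a letter from a to g and a digit. The symbol alone decided membership, but the gene set itself was proposed with results of these data in view, so its counts and medians are a description. The pattern found 58 probe sets of 46 genes, out of 8251 genes named by single-gene probe sets. Of the 46, 44 encode proteasome subunits, activators or assembly factors. The other two, Psmc3ip and Psme3ip1, encode proteins named for binding a proteasome subunit and were kept out of every subcomplex. Probe sets for the inhibitor gene Psmf1, the testis subunit gene Psma8 and the thymus subunit gene Psmb11 were not analysed here.

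The data are 2 arrays of LSK cells, called sample 1 and sample 2 after their titles, and both belong to 1 group. The labels give no treatment, genotype, strain, age or second condition, and leave unstated if separate animals or sorts gave the samples. The spread between them may therefore be technical. The RNA of both went through 2 rounds of amplification. With 1 group there is no contrast to test, so differences between the samples are given as a spread, with no p-value.

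The proteasome is the main protease of the cytosol and nucleus for proteins tagged with ubiquitin. Its 20S core particle is a barrel of stacked rings, with alpha subunits in the outer rings, which gate the entrance, and beta subunits in the inner rings, some of which carry the proteolytic sites. The 19S regulatory particle sits on the barrel ends: non-ATPase subunits bind ubiquitin chains and cut them off, and a ring of ATPases unfolds the substrate and pushes it into the core. In blood cells, and in other cells exposed to interferon gamma, the immunosubunits Psmb8, Psmb9 and Psmb10 can replace the constitutive catalytic subunits, which alters the peptides passed on to MHC class I molecules.

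Signals are quantile-normalized intensities on a linear scale. Signals under 20 were set to 20 before log2, so a fold against such a signal is only bounded from below, given as "at least". A gene was counted as above the control level if 1 of its probe sets exceeded, in both samples, the 90th percentile of the 15 bacterial control probe sets, which was 12.1 in sample 1 and 8.91 in sample 2. The deposited means of the 2 arrays were equal at 53.9, and 57.6% of the normalized signals of each array lay under 20. Signals of different genes are listed side by side but not ranked, because probes differ in how they respond. Where a gene had several probe sets, its value comes from the one whose mean log2 signal was highest.

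Nearly all measured proteasome genes gave a signal above the control level in both samples. This held for 40 of 44 genes, or 90.9%, while 57.0% of all 8251 named genes were above it. All 7 alpha, all 7 constitutive beta and all 3 immunosubunit genes of the core were among them, with 5 of 6 ATPase genes, 10 of 11 non-ATPase genes, 3 of 3 activator genes and 5 of 7 assembly factor genes. A signal of at least 20 in both samples was met by 35 of the 44, and by 40.7% of all named genes. The 4 genes that failed the control level were the ATPase gene Psmc4 (15.4 in sample 1 and 3.0 in sample 2), the scaffold subunit gene Psmd2 (5.4 in sample 1, 7.2 in sample 2), the assembly chaperone gene Psmd10 (10.2 in sample 1, 2.8 in sample 2) and the assembly chaperone gene Psmg2 (24.3 in sample 1, 1.7 in sample 2).

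**Figure D1:**
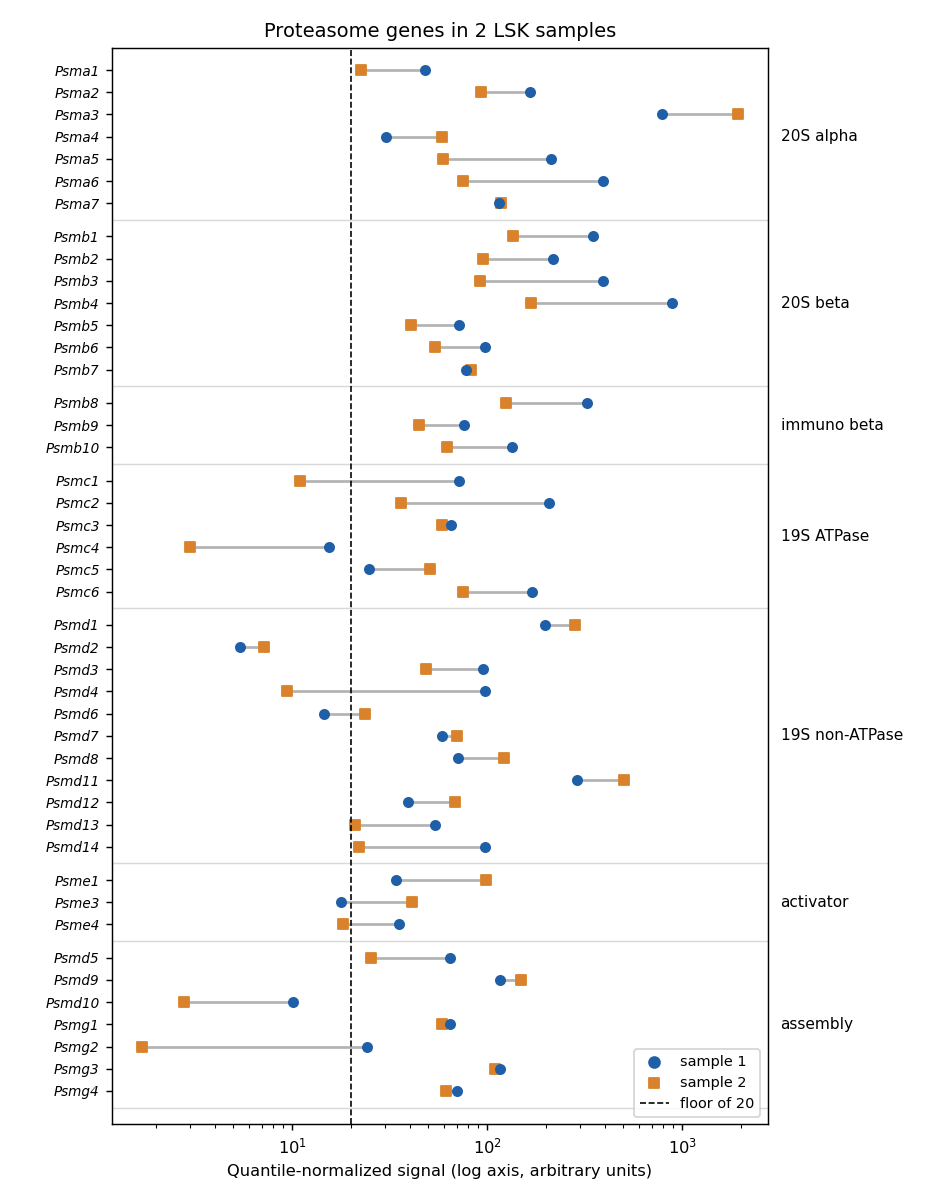
Quantile-normalized signal (log axis) of the 44 proteasome genes in sample 1 (circles) and sample 2 (squares), grouped by subcomplex, with a dashed line at the floor of 20. Circles lie to the right of squares for most beta subunits, among them Psmb4 with 884 in sample 1 and 167 in sample 2, while Psme1 and Psma3 run the other way; positions of different genes are not comparable.

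The 2 samples differed more over proteasome genes than over named genes in general, and mostly in 1 direction. Of the 40 genes above the control level, 26 (65%) had more signal in sample 1 and 14 in sample 2. Of all 4707 named genes above the level, 47.1% were higher in sample 1, with a further 449 at the floor in both. At least 2-fold higher in sample 1 were 16 of 40 genes (40%), beside 11.0% of all named genes. At least 2-fold higher in sample 2 were 4 of 40 (10%), near the 9.62% of all named genes. The median log2(sample 1 / sample 2) was 0.82 (1.76-fold) over the 40 genes and 0 over all 4707. The replicate SD on the log2 scale was 0.90 for proteasome genes and 0.59 for all named genes (n = 2 samples).

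The same view held among genes with measurable signals on both arrays. Of 35 proteasome genes with both signals at 20 or more, 14 were at least 2-fold higher in sample 1, beside 11.9% of 3338 named genes. A further split, chosen after the values were seen, took genes whose mean log2 signal was at or above the proteasome median of 6.13. Of the 20 proteasome genes in it, 10 were at least 2-fold higher in sample 1 and 1 in sample 2. Of the 1240 named genes in it, 15.4% were at least 2-fold higher in sample 1 and 14.8% in sample 2, and the median difference was -0.01.

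**Figure D2:**
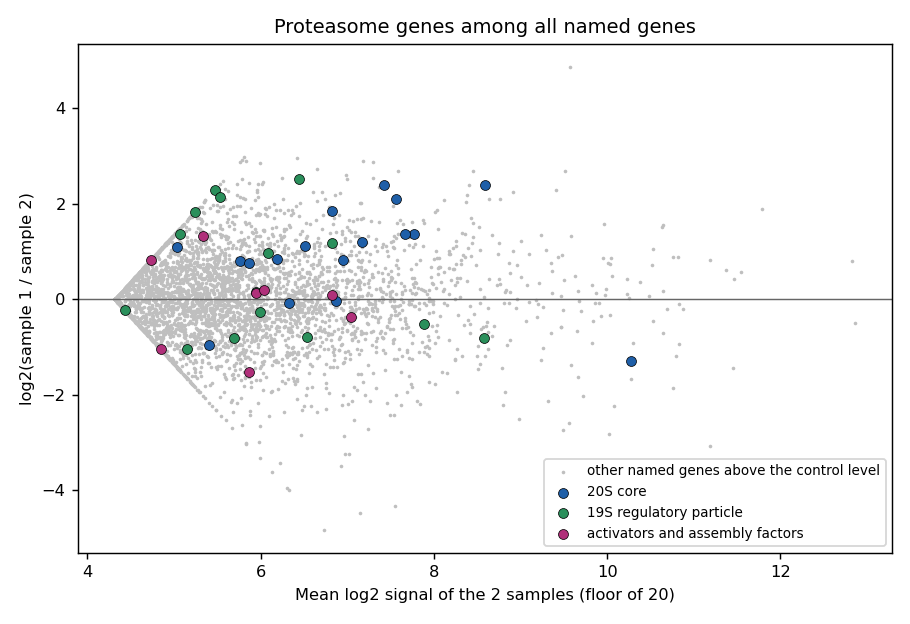
Difference between the samples, log2(sample 1 / sample 2), against the mean log2 signal for the 4707 named genes above the control level (grey), with 20S core, 19S and other proteasome genes coloured. The slanted edges come from the floor of 20; 16 proteasome genes lie at or above a difference of 1 and 4 at or below -1.

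In the outer rings of the core, 4 of 7 alpha subunit genes had more signal in sample 1 and 3 in sample 2, with a median difference of 0.83. Psma6 gave 393 in sample 1 and 75.2 in sample 2, a 5.22-fold difference (mean log2 signal 7.42 ± 1.69, SD, n = 2). Psma5 gave 214 in sample 1 and 59.6 in sample 2, 3.58-fold apart, and Psma1 gave 47.9 in sample 1 and 22.5 in sample 2, 2.13-fold apart. These 3 were the alpha genes at least 2-fold higher in sample 1. Psma2 lay in the same direction below that size, with 165 in sample 1 and 93.1 in sample 2. Psma3 ran the other way at 792 in sample 1 and 1927 in sample 2, 2.43-fold higher in sample 2 (10.27 ± 0.91, SD, n = 2). Its only probe set is of the maker's type f, whose probes match several similar sequences, so the signal may not come from Psma3 alone. Psma4 had 30.4 in sample 1 and 58.6 in sample 2, and Psma7 had 115 in sample 1 and 118 in sample 2. As proteins, the alpha subunits assemble into 1 ring in equal numbers, but protein was not measured here. The differences of their transcripts between the samples ranged from -1.28 to 2.38 on the log2 scale. The lowest value is that of Psma3 with its type f probe set, and the next lowest was -0.95, for Psma4.

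In the inner rings, 6 of 7 constitutive beta subunit genes were higher in sample 1 by the probe sets used, with a median difference of 1.19 (2.29-fold). Psmb3, a non-catalytic subunit, gave 393 in sample 1 and 91.4 in sample 2, 4.30-fold apart (7.57 ± 1.49, SD, n = 2). Psmb1 had 349 in sample 1 and 135 in sample 2, and Psmb2 had 218 in sample 1 and 95.5 in sample 2, also non-catalytic subunits. All 3 were at least 2-fold higher in sample 1. The genes of the 3 catalytic subunits differed less: Psmb5, of the chymotrypsin-like site, had 71.6 in sample 1 and 40.8 in sample 2. Psmb6, of the caspase-like site, had 97.2 in sample 1 and 54.3 in sample 2. Psmb7, of the trypsin-like site, had 77.8 in sample 1 and 82.4 in sample 2 by a probe set of type f. By the probe sets used, it was the only beta gene not higher in sample 1. The RefSeq gene table of GRCm38.p6 lists 6 pseudogenes of Psma5, Psmb5, Psmb6 and Psmb7, and whether the probes also bind their transcripts was not tested.

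Psmb4, a non-catalytic beta subunit, gave values that depended on the probe set. The probe set used for the gene, of type f, gave 884 in sample 1 and 167 in sample 2, 5.29-fold apart. A plain probe set of the same gene had 17.0 in sample 1 and 17.2 in sample 2, under the floor in both samples, and the remaining one had 0.3 in sample 1 and 2.25 in sample 2. The large difference of Psmb4 thus rests on 1 of 3 probe sets.

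The 3 immunosubunit genes were all higher in sample 1, with a median difference of 1.11 (2.16-fold). Psmb8, which replaces Psmb5, gave 326 in sample 1 and 126 in sample 2, 2.60-fold apart (7.66 ± 0.97, SD, n = 2). Psmb10, which replaces Psmb7, gave 134 in sample 1 and 62.0 in sample 2, 2.16-fold apart. Psmb9, which replaces Psmb6, gave 75.9 in sample 1 and 44.5 in sample 2, 1.70-fold apart and so under the 2-fold mark. Each gene has 1 probe set, of the plain type. The order of the 2 samples was the same in all 3 genes. By the probe sets used, it was that of their constitutive counterparts Psmb5 and Psmb6 but not of Psmb7. The other probe set of Psmb5 pointed the other way, at 23.2 in sample 1 and 26.9 in sample 2.

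Genes of the next steps of antigen presentation mostly ran the other way. Psmb8 and Psmb9 lie in the MHC class II region on chromosome 17, interleaved with the peptide transporter genes Tap1 and Tap2. Tap1 had 56.3 in sample 1 and 113 in sample 2, so sample 2 had about 2 times the signal, and its other probe set was under 20 in both samples. Tap2 had 18.6 in sample 1 and 59.2 in sample 2, at least 2.96-fold higher in sample 2. Tapbp, which encodes the tapasin that links the transporter to class I molecules, had 46.2 in sample 1 and 336 in sample 2, and its other probe sets had 20.4 in sample 1 and 36.0 in sample 2, and 83.2 in sample 1 and 126 in sample 2. Of 8 class I loading genes above the control level, 2 were higher in sample 1 and 6 in sample 2, with a median of -0.59. By the probe sets used, the closest pairs of signals were those of H2-K1, a class I heavy chain gene, with 435 in sample 1 and 459 in sample 2, and of Canx, a chaperone gene, with 70.6 in sample 1 and 58.4 in sample 2. The H2-K1 probe set is of type f, and the other probe sets of that gene pointed in opposite directions, at 55.4 in sample 1 and 15.6 in sample 2, and at 49.8 in sample 1 and 82.4 in sample 2. The 2 genes higher in sample 1 were Canx and H2-D1, also a class I heavy chain gene. For H2-D1 the probe set used had 242.5 in sample 1 and 153 in sample 2. Its other probe sets had 187 in sample 1 and 90 in sample 2, and 86.6 in sample 1 and 72.4 in sample 2. All are of type f.

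Regulators of the interferon response were mostly higher in sample 2 as well. Of 7 above the control level, 6 were higher in sample 2, but only 2 of them at least 2-fold. The median difference was -0.25, smaller in size than the replicate SD of 0.59 over all named genes. Irf1, a transcription factor known to drive the immunosubunit and Tap1 genes, had 33.2 in sample 1 and 102 in sample 2, 3.07-fold higher in sample 2. Ifnar2, a chain of the type I interferon receptor, had 29.2 in sample 1 and 159 in sample 2, while its other probe set, not above the control level, gave 17.4 in sample 1 and 4.1 in sample 2. Ifngr1, a chain of the interferon gamma receptor, went the other way with 45.4 in sample 1 and 18.0 in sample 2, at least 2.27-fold higher in sample 1. Socs1, an inhibitor of cytokine signalling, had 12.1 in sample 1 and 21.1 in sample 2, and Ifnar1, the other chain of the type I receptor, 24.5 in sample 1 and 28.2 in sample 2. Under the deposited and the median-centred scaling, both list medians kept their sign.

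**Figure D3:**
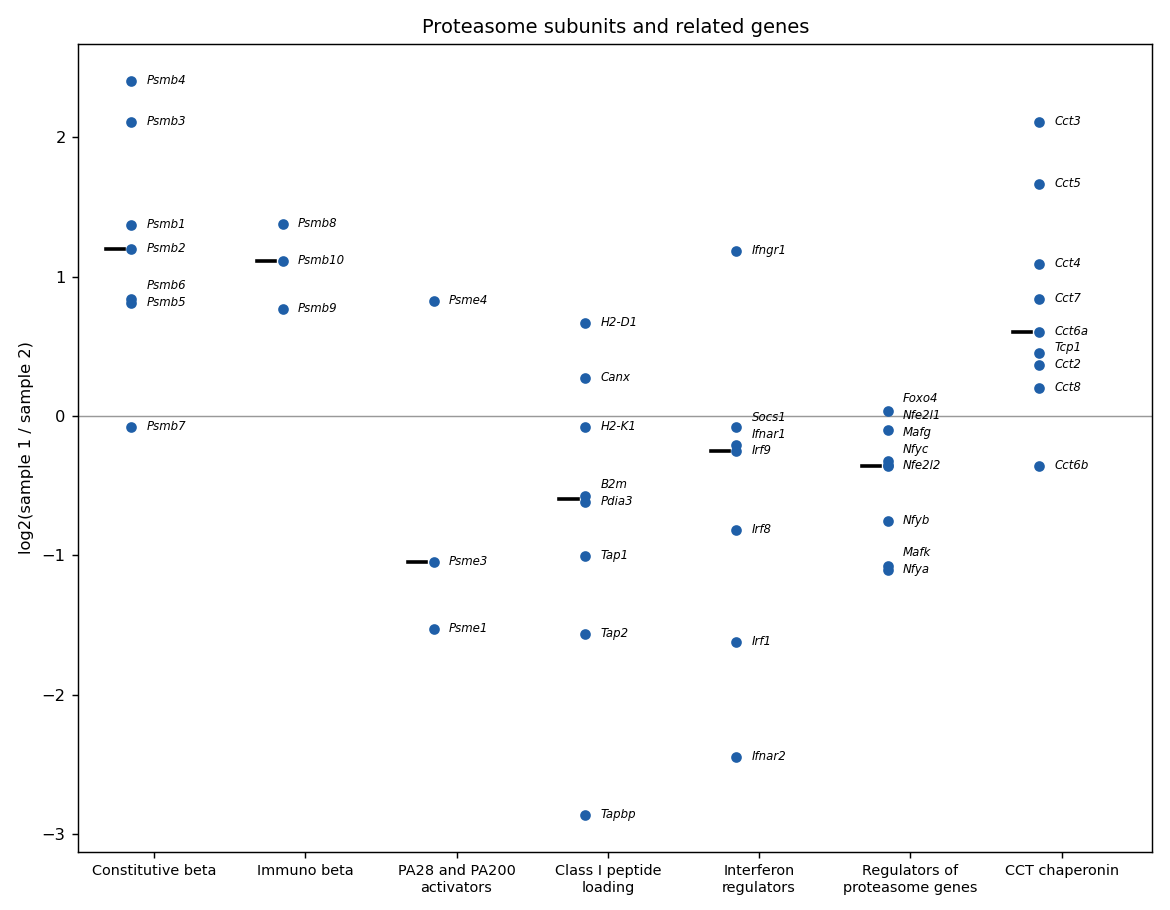
Difference between the samples, log2(sample 1 / sample 2), for beta subunit, activator and related genes above the control level, 1 point per gene, with a short bar at each median; labels are shifted upwards where points crowd. The 3 immunosubunit genes lie above 0, at 0.77 to 1.38, while Tap1, Tap2, Tapbp and Irf1 lie at or below -1. Of the class I loading genes, H2-D1 and Canx lie above 0.

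Psmb9 and Tap1 are read from opposite strands of 1 shared upstream stretch, which is shown because their transcripts differed between the samples in opposite directions. The upstream stretches of Psmb8, Psmb3, Psma6 and Psme1 are shown for comparison, as an immunosubunit gene, 2 core genes far higher in sample 1 and an activator gene higher in sample 2. All are RefSeq sequences of GRCm38.p6, 5′ to 3′ on the strand of the named gene, and end at the base before its start site. The Psmb9 stretch, chr17:34187331-34187555 on the minus strand, stops where Tap1 begins. Psmb8 is at chr17:34197945-34198194, Psmb3 at chr11:97703184-97703433, Psma6 at chr12:55383972-55384221 for the first of its 2 listed starts, and Psme1 at chr14:55578244-55578493, all on the plus strand. Capitals mark matches, on either strand, to CCAAT (the NF-Y box), GGGCGG (the GC box), TGACNNNGC (the core of the antioxidant response element bound by the proteasome gene activators Nfe2l1 and Nfe2l2), GAAANNGAA (an interferon regulatory factor core) and TTCNNNGAA (the GAS element).
Psmb9: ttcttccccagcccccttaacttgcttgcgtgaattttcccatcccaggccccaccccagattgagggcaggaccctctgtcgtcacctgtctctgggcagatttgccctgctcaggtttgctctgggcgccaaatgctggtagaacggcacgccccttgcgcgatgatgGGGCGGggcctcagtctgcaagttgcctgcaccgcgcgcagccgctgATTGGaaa
Psmb8: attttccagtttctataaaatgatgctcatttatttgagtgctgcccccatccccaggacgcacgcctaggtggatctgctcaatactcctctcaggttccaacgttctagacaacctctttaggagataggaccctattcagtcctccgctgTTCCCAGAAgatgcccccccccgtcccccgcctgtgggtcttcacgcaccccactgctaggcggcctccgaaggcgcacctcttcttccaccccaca
Psmb3: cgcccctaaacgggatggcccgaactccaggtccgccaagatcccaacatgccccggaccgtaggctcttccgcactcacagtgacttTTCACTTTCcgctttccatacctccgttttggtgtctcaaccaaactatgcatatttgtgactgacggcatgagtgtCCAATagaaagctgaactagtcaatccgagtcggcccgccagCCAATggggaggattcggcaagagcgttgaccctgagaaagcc
Psma6: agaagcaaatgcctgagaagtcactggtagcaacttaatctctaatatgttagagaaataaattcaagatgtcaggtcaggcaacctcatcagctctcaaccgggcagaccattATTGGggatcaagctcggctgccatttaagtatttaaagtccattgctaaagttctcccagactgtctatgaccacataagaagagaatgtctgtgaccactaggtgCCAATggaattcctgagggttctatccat
Psme1: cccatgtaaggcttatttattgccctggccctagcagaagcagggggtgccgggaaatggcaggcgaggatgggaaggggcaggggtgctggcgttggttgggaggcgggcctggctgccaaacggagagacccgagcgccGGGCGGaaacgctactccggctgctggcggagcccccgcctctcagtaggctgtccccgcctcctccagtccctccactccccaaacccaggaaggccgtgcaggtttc

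The capitals differed between these genes. The Psmb9 stretch held a GC box and, next to the start, an NF-Y box on the reverse strand. Psmb8 held 1 GAS element, Psmb3 held 2 NF-Y boxes and an interferon regulatory factor core, Psma6 held 2 NF-Y boxes and Psme1 1 GC box. The stretch before the other listed start of Psma6 held no match. Of the 44 genes, 37 had an entry in the promoter table, with 39 start sites. The genes without an entry were Psmb1, Psmb2, Psmb7, Psmc3, Psmd3, Psmd7 and Psmg2.

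In the 250 bases before the start, 21 of 39 proteasome promoters (53.8%) held a GC box, beside 32.7% of all 32851 promoters in the table. For the NF-Y box the counts were 13 of 39 (33.3%), beside 33.8% of all, and 5 of the 8 alpha subunit promoters held it. The antioxidant response element core was in 5 of 39 (12.8%), beside 10.2% of all. These 5 were the promoters of Psmb5, Psmb6, Psmc6, Psmd12 and Psmd9, where the match of Psmd9 overlaps a GC box. The interferon regulatory factor core was in 3 (7.69%, beside 7.13%) and the GAS element in 2 (5.13%, beside 7.02%). The genes with the antioxidant core did not share a direction: by the probe sets used, Psmb5, Psmb6 and Psmc6 were higher in sample 1, and Psmd12 and Psmd9 higher in sample 2.

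Beyond Psmb9, 3 proteasome genes have another measured gene within their upstream stretch. Psmc2 was higher in sample 1, and its neighbour Dnajc2 gave 116 in sample 1 and 48.9 in sample 2, in the same direction. Psmd13 was 2.56-fold higher in sample 1, and its neighbour Sirt3 had 93.3 in sample 1 and 88.8 in sample 2. Psmc5 was 2.05-fold higher in sample 2, and Ftsj3 had 32.4 in sample 1 and 7.6 in sample 2, not above the control level in sample 2.

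Among the 19S ATPases, 4 of the 5 genes above the control level were higher in sample 1, with a median difference of 1.18 (2.26-fold). Psmc2 had 208 in sample 1 and 36.4 in sample 2 (6.44 ± 1.78, SD, n = 2), 5.72-fold apart. Psmc1 had 71.4 in sample 1 and 10.9 in sample 2, at least 3.57-fold apart, and Psmc6 had 170 in sample 1 and 75.4 in sample 2. Both pointed the same way as Psmc2. Psmc5 had 24.7 in sample 1 and 50.8 in sample 2, with its other probe set at 2.9 in sample 1 and 18.4 in sample 2. For Psmc3 the probe set used had 65.2 in sample 1 and 58.4 in sample 2, and the other probe sets had 93.3 in sample 1 and 39.5 in sample 2, and 63.2 in sample 1 and 1.2 in sample 2. The Psmc3 difference was thus 0.16, 1.24 or at least 1.66 on the log2 scale, all with more signal in sample 1. The values of 0.16 and 1.24 come from probe sets of type f. The value of 1.66 comes from a probe set not above the control level in sample 2.

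The 19S non-ATPase genes went both ways. Of 10 above the control level, 4 were higher in sample 1 and 6 in sample 2, with a median of -0.25, but all 3 that differed at least 2-fold were higher in sample 1. Psmd14, the deubiquitinase that removes the ubiquitin chain, gave 97.4 in sample 1 and 21.9 in sample 2, 4.44-fold apart (5.53 ± 1.52, SD, n = 2). Psmd4, a ubiquitin receptor, had 97.8 in sample 1 and 9.45 in sample 2, at least 4.89-fold apart. Psmd13, a lid subunit, had 53.8 in sample 1 and 21.0 in sample 2. In these 3 genes the signal of sample 2 was close to or under the floor.

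The scaffold and lid genes on the other side differed less than 2-fold. Psmd11, a lid subunit, had 288 in sample 1 and 505 in sample 2, 1.75-fold higher in sample 2. Its other probe sets had 40.6 in sample 1 and 35.6 in sample 2, and 12.2 in sample 1 and 57.7 in sample 2, so the probe sets pointed in different directions. Psmd8 and Psmd12, also lid subunits, had 70.9 in sample 1 and 122 in sample 2, and 39.2 in sample 1 and 68.7 in sample 2. Psmd1, the large scaffold subunit, had 198 in sample 1 and 283 in sample 2. Psmd7, the partner of Psmd14, had 58.4 in sample 1 and 69.8 in sample 2, unlike Psmd14 itself. Of the lid subunit genes Psmd6 and Psmd3, Psmd6 had 14.6 in sample 1 and 23.5 in sample 2, at least 1.18-fold higher in sample 2, and Psmd3 had 95.4 in sample 1 and 48.4 in sample 2, 1.97-fold higher in sample 1.

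**Figure D4:**
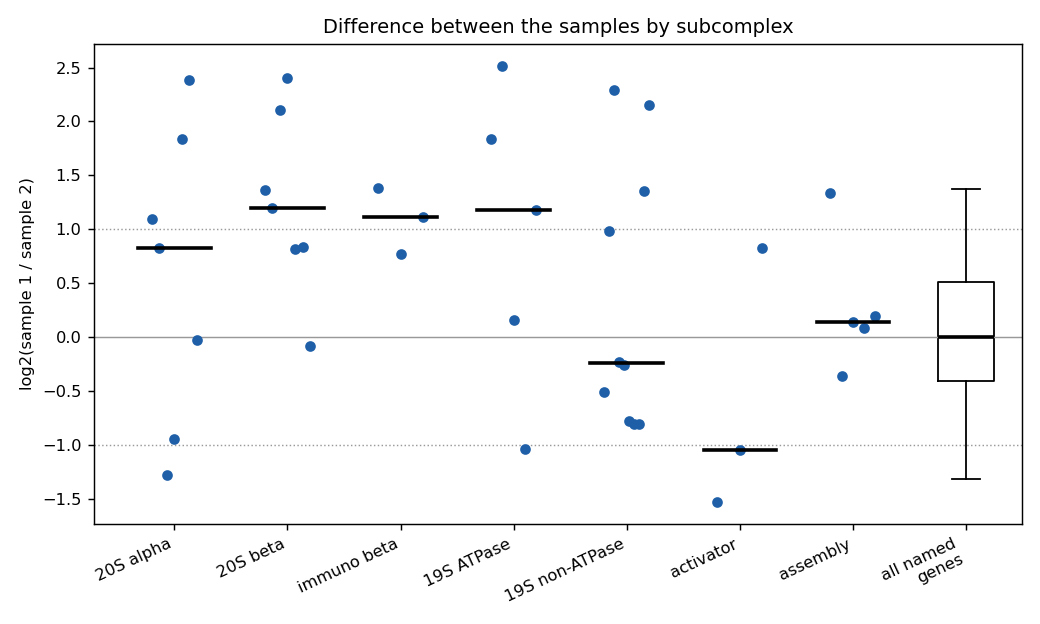
Difference between the samples, log2(sample 1 / sample 2), for the 40 proteasome genes above the control level by subcomplex, 1 point per gene with a bar at the median; the box shows the quartiles and the whiskers the 5th and 95th percentiles of the 4707 named genes. Medians are 1.19, 1.11 and 1.18 for beta, immuno beta and ATPase genes, and -0.25 and -1.05 for non-ATPase and activator genes.

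The activators, which open the core without the 19S particle, had 2 of 3 genes higher in sample 2. Psme1, the alpha subunit of the interferon-inducible activator PA28, had 34.2 in sample 1 and 98.8 in sample 2, 2.89-fold higher in sample 2 (5.86 ± 1.08, SD, n = 2). Its other probe set, at 3.85 in sample 1 and 0.75 in sample 2, was not above the control level. Psme3, the nuclear PA28 gamma, had 17.9 in sample 1 and 41.4 in sample 2, at least 2.07-fold higher in sample 2. Psme4, the large activator PA200, had 35.4 in sample 1 and 18.3 in sample 2, at least 1.77-fold higher in sample 1. The partner of Psme1 in the PA28 ring is encoded by Psme2, and the probe sets for it also name Psme2b. They were left out of all counts and had 99.4 in sample 1 and 73.1 in sample 2, and 2.25 in sample 1 and 4.8 in sample 2.

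Assembly factors had the smallest median size of difference among the 7 measured subcomplexes, 0.20 on the log2 scale. The chaperone genes Psmg1 (64.5 in sample 1 and 58.6 in sample 2), Psmg3 (117 in sample 1, 110 in sample 2) and Psmg4 (70.4 in sample 1, 61.4 in sample 2) of core assembly were within 1.15-fold between the samples. The other probe set of Psmg3 had 46.7 in sample 1 and 26.8 in sample 2. Psmd5, a chaperone of the 19S base, was the exception at 64.1 in sample 1 and 25.4 in sample 2, 2.52-fold higher in sample 1, and Psmd9, another base chaperone, had 116 in sample 1 and 150 in sample 2. Pomp, which guides the maturation of the core and has no Psm symbol, had 62.8 in sample 1 and 40.5 in sample 2. Outside the complex, Psme3ip1 had 100.4 in sample 1 and 26.3 in sample 2, and Psmc3ip, which acts in meiotic recombination, had 15.4 in sample 1 and 6.95 in sample 2.

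Probe sets of 1 gene did not always give the same difference. Of 8 proteasome genes with several probe sets, 6 had at least 2 above the control level. In 2 of these 6, Psmb5 and Psmd11, the probe sets above the level pointed in opposite directions. The second probe set of Psmb5 had 23.2 in sample 1 and 26.9 in sample 2. The 3 probe sets of Psmb1 all had more signal in sample 1, with differences of 0.41 to 1.37. The probe set of Psmd12 is of type f, and those used for Psmd9 and Psmg3 are of type r, in which the probes could not all be chosen by the maker's usual rules.

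**Figure D5:**
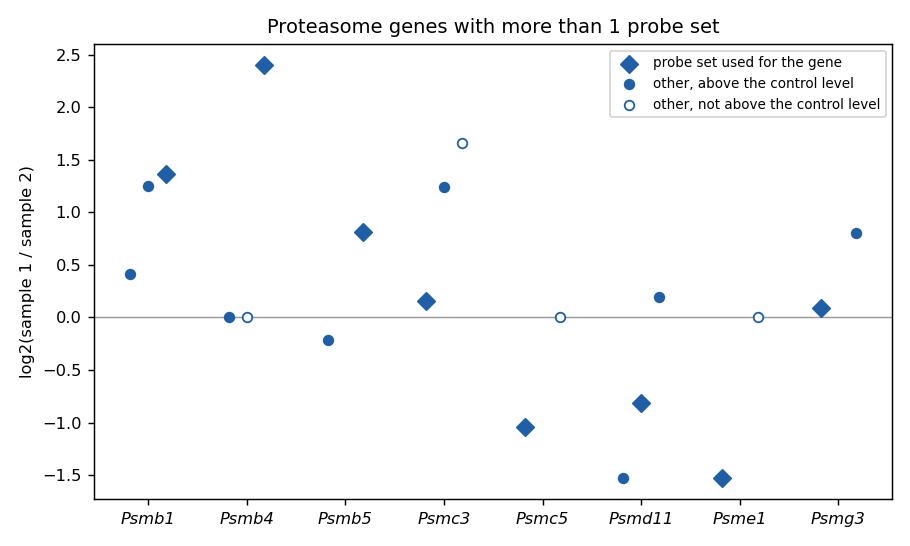
Difference between the samples, log2(sample 1 / sample 2), for each probe set of the 8 proteasome genes with more than 1; diamonds are the probe sets used for the gene, and open circles were not above the control level. Psmb1 lies above 0 throughout, Psmd11 spans -1.53 to 0.19, and Psmb4 spans 0 to 2.40.

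Partners of the proteasome had no common direction. Of 10 partner genes above the control level, 5 were higher in each sample by the probe sets used, with a median of -0.10. Of 3 partner genes with several probe sets above that level, all 3 (Akirin2, Rad23b and Ubqln1) had probe sets pointing in opposite directions, so these counts depend on the probe set taken. Sem1, a small lid subunit without a Psm symbol, had 256 in sample 1 and 119 in sample 2, 2.16-fold higher in sample 1, and the scaffold gene Ecpas had 44.4 in sample 1 and 17.8 in sample 2. Zfand5, a proteasome-binding zinc finger protein, had 19.1 in sample 1 and 52.6 in sample 2, at least 2.63-fold higher in sample 2. The values of Akirin2, which brings proteasomes into the nucleus, could not be given a direction: 1 probe set gave 306 in sample 1 and 1337 in sample 2 and the other 1146 in sample 1 and 342 in sample 2. The smallest differences were those of Ube3a, a ubiquitin ligase, with 22.6 in sample 1 and 18.0 in sample 2, and of the shuttle factor Ubqln1, with 22.4 in sample 1 and 29.0 in sample 2. Its other probe set gave 24 in sample 1 and 20.6 in sample 2. Of 5 genes of the Vcp (p97) list above the control level, 3 were higher in sample 1, none by 2-fold with the probe sets used. Vcp, the segregase that delivers substrates to the proteasome, had 476 in sample 1 and 428 in sample 2, and its cofactor Faf1 39.6 in sample 1 and 42.8 in sample 2 by a probe set of type f. The other probe sets of Faf1 ran the other way, at 41.1 in sample 1 and 24.4 in sample 2, and at 23.2 in sample 1 and 11.9 in sample 2. For Derl1, a channel protein of the same pathway, the probe set used gave 41.6 in sample 1 and 35.8 in sample 2, and the other 19.8 in sample 1 and 49.8 in sample 2.

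Known regulators of proteasome gene transcription were close to level or higher in sample 2. Of 8 above the control level, 1 was higher in sample 1 and 7 in sample 2, with a median of -0.36, and with the deposited scaling the counts were 2 and 6. Nfe2l1, the factor that restores proteasome gene transcription when the proteasome is inhibited, had 46 in sample 1 and 49.4 in sample 2. Nfya, a subunit of the CCAAT-binding factor NF-Y, had 37.7 in sample 1 and 81.0 in sample 2, 2.15-fold higher in sample 2. Mafk, a small Maf partner of Nfe2l1, had 12.5 in sample 1 and 42.1 in sample 2, at least 2.11-fold higher in sample 2. The forkhead factor gene Foxo4 had 142 in sample 1 and 138 in sample 2. Of the list of ubiquitin and E1 genes, Uba3, which encodes a subunit of the E1 enzyme for NEDD8, alone was measured, at 24 in sample 1 and 2.8 in sample 2, and no gene of that list was above the control level.

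The CCT chaperonin, another ring complex of the cytosol, folds actin and tubulin. Of its 9 genes, all above the control level, 8 were higher in sample 1 and 3 at least 2-fold so, with a median of 0.60. Those 3 were Cct3 at 222 in sample 1 and 51.3 in sample 2, Cct5 at 347 in sample 1 and 110 in sample 2, and Cct4 at 246 in sample 1 and 116 in sample 2. Cct8 had 26 in sample 1 and 22.7 in sample 2, and Cct6b 17.8 in sample 1 and 25.6 in sample 2. The difference between the 2 complexes was not tested.

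Markers of cell state also differed between the samples. Of the LSK markers, 8 were measured and all were above the control level: Kit (25.8 in sample 1 and 19.4 in sample 2), Cd34 (43.9 in sample 1, 57.2 in sample 2), Flt3 (137 in sample 1, 322 in sample 2), Gata2 (51.2 in sample 1, 67.8 in sample 2), Lyl1 (695 in sample 1, 2224 in sample 2), Meis1 (18.6 in sample 1, 40.3 in sample 2), Myb (490 in sample 1, 232 in sample 2) and Tie1 (34.2 in sample 1, 175 in sample 2). The Tie1 values come from a type f probe set. Its plain one, at 2.8 (sample 1) and 4.7 (sample 2), was under the control level on both arrays. Second probe sets of Cd34, Gata2 and Myb also failed that level, the one for Cd34 in sample 1 only. For Tie1, Cd34, Gata2 and Myb, being above the level thus rests on 1 probe set each. Ly6a, which encodes Sca-1, was not analysed here. The array measured 8 genes for lineage antigens, and 3 of them exceeded the control level: Ms4a1 (28.2 in sample 1, 43.4 in sample 2), Ptprc (19.8 in sample 1, 13.7 in sample 2) and Ly6g (14.1 in sample 1, 9.25 in sample 2). The other 5, Cd3e, Cd4, Cd5, Cd8a and Itgam, were at 12.0 or less in both samples, and the sums over the 8 were 84.9 in sample 1 and 97.3 in sample 2. Ptprc, part of these sums, encodes CD45 of blood cells in general. Only its B220 form is a lineage antigen, and the signal was not split by form. The second Ms4a1 probe set, at 1.95 in sample 1 and 22.95 in sample 2, failed the level in sample 1. Other Ptprc probe sets, at 0.5 and 1.85 in sample 1 and 0.95 and 3.65 in sample 2, failed it in both. By the probe sets used, all 6 myeloid progenitor genes were higher in sample 1, although those of Csf1r pointed both ways, with summed signals of 2874 in sample 1 and 831 in sample 2. Mpo, at 1862 in sample 1 and 288 in sample 2, made up most of the sum of sample 1. Prtn3 differed least, at 459 in sample 1 and 342 in sample 2. All 4 early lymphoid genes above the control level were higher in sample 2, with sums over the 5 measured of 226 in sample 1 and 755 in sample 2. All 6 immediate early genes were higher in sample 2, with sums of 304 in sample 1 and 2340 in sample 2. Of 5 genes of cycling cells 4 were higher in sample 1, with sums of 1197 in sample 1 and 717 in sample 2, and with the deposited scaling 5 were. The 3 erythroid genes went both ways: Car1 had 488 in sample 1 and 75.9 in sample 2, Klf1 had 215 in sample 1 and 80.5 in sample 2, and Hba-a1 had 30.1 in sample 1 and 670.3 in sample 2. No marker signal was 0. In bulk RNA, fewer cells of a type and less RNA per cell cannot be told apart, and the part of these lists in the proteasome differences was not tested.

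The 2 arrays also differed in the 3′ to 5′ signal ratios of control transcripts. The signal of the 3′ control probe set of Gapdh was 11.2 times that of the 5′ one in sample 1 and 19 times in sample 2. For Actb the ratios were 10.4 in sample 1 and 22.2 in sample 2. Tfrc had ratios of 8.44 in sample 1 and 7.58 in sample 2, and Pcx of 0.35 in sample 1 and 1.58 in sample 2, both from signals near or under the floor. Whether this has a part in the lower proteasome signals of sample 2 was not tested.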

How the data were processed

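The deposited values were linear-scale signal intensities from an Affymetrix mouse array, with 12488 probe sets in each of 2 samples. Per the labels, the RNA was amplified in 2 rounds. For the summary and scaling of these deposited intensity values the software is not given in the sources used. No depth applies, and the number of arrays, 2, limits the precision.

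Both arrays were quantile-normalized, signals under 20 were set to 20, and log2 was taken, with Python 3.11.15, numpy 2.4.6 and pandas 2.3.3. The floor shrinks the differences of weak genes. The 66 control probe sets were removed. Of the others, 10833 named 1 gene in the platform annotation, 396 several and 1193 none, and only the first kind was used. The computation was checked on simulated arrays with known shifts of strong genes and less noise than between these 2 arrays. That check does not cover genes near the floor and says nothing on how reliable the 2-fold calls are. Psmd5, Psmd9 and Psmd10 were put with the assembly factors. All genes of the pattern are named. Of the related lists the rule names genes at least 2-fold apart (up to 4) and those closest together (up to 2), and all measured markers of the sorted cells. The myeloid, lymphoid, immediate early and cycling lists are given as counts and sums instead, with Csf1r, Mpo and Prtn3 named after their values were seen. Pomp, Rad23b, Derl1, Psme2, H2-D1 and genes next to a promoter were named outside that rule, for their role and after their values were seen. Members and lists were chosen with earlier results of these data known. Alternatives were 2 other scalings, no floor, an offset of 32, 2 other filters, averaging the probe sets of a gene, and other control levels. Plain probe sets alone, the count of opposed probe sets, the split at the median signal and the promoter search were added after seeing the data.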

Additional observations from a re-analysis of the deposited data

How the results depend on the processing

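The median difference of proteasome genes, log2(sample 1 / sample 2), was above 0 under all 8 alternatives, at 0.52 without a filter on low values to 0.88 with the deposited scaling. The medians of the 7 measured subcomplexes kept their sign under all 8. They were 0.55 to 0.96 for alpha, 0.84 to 1.25 for beta, 0.82 to 1.21 for immunosubunit and 0.67 to 1.51 for ATPase genes. For non-ATPase genes they were -0.38 to -0.17, for activator genes -1.53 to -0.56 and for assembly genes 0.09 to 0.50. The activator value of -1.53, with both signals at 20 or more, is that of 1 gene, Psme1. With an offset of 32 in place of the floor, 10 genes were at least 2-fold higher in sample 1 and 1 in sample 2. The shares of all named genes were then 4.46% and 3.78%. With the mean over probe sets, 2 genes were at least 2-fold higher in sample 2, beside 7.14% of all named genes. Psmc3 had a difference of 0.81 with the offset, against 0.16 as reported. Of the 20 genes at least 2-fold apart, 7 stayed so under every alternative: Psma5, Psma6, Psmb1, Psmb3, Psmb8, Psmc2 and Psmd14. A further 3 stayed so under the 7 alternatives that give them a value: Psma3, higher in sample 2, which has no plain probe set, and Psmc1 and Psmd4, whose sample 2 signals are under 20. Psmb4 had a difference of 0.80 with the mean over its probe sets and of 0 with plain probe sets only. Psma7, at -0.03, changed sign with the deposited scaling. Above the control level were 40 proteasome genes in sample 2 alone and 42 in sample 1 alone, beside 71.0% and 64.3% of all named genes. With the highest bacterial control as the level 38 passed, beside 53.0% of all. The genes lost were Psmc1 and Psmd4, both among those at least 2-fold higher in sample 1. When every probe set had to pass 36 did, beside 44.9% of all. Differences have no value with 1 sample left out. No paired analysis was possible because the 2 samples form 1 group. The 2-sample design and signals near the floor limit every value.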
